A study of Mus musculus with 14 samples.

Results

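The PPM phosphatases are a family of protein phosphatases that remove phosphate from serine and threonine with the help of magnesium or manganese ions. The 10 genes described here, Ppm1a, Ppm1b, Ppm1d, Ppm1e, Ppm1f, Ppm1g, Ppm1h, Ppm1k, Ppm1l and Ppm1m, were taken by symbol from a deposited table of 34193 genes in mouse cortex. All 10 were among the 13815 genes that passed a filter on low counts and were tested. Ppm1m brought the family in. In the authors' deposited table it was 1 of 27 genes with an adjusted p under 0.05 for genotype. Those 27 were 0.191% of the 14160 genes with an adjusted p there. Ppm1m had a log2 fold change of 0.30 and an adjusted p of 0.00355 in that DESeq comparison. The member next to that threshold was Ppm1l, with a log2 fold change of 0.12 and an adjusted p of 0.571 in the authors' deposited table. Ppm1m was thus chosen by its genotype difference in these animals. The other 9 genes were added by family name with their genotype values already known. Genotype values below are therefore descriptions, and tests are given for sex and for the title prefixes. The lists of genes outside the family were also chosen with earlier results of these data known, and their genotype counts are descriptions too.

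The tested animals were 7 mice heterozygous for a Dnmt3a knockout, 4 females and 3 males, and the controls were 7 wild-type littermates, also 4 females and 3 males. All were C57BL/6J mice aged 8 weeks, and the tissue was dissected cortex. How the knockout allele was made is not given in the labels. Sample titles begin with 1 of 6 numbers, each shared by animals of both genotypes and 1 sex: 047, 139 and 141 in females, and 046, 048 and 119 in males. Animals of prefixes 119 and 141 (set B, 3 of each genotype) lay apart from those of prefixes 046, 047, 048 and 139 (set A, 4 of each genotype) on the first principal component of log2 CPM (counts scaled to library size). The split came from the data themselves, and no label explains the prefix.

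Total counts ranged from 8951835 to 14335406 in heterozygotes and from 9794201 to 14206585 in wild-type mice. Dnmt3a, the targeted gene, had 99.0 ± 11.4 CPM in heterozygotes and 146 ± 14.2 CPM in wild-type mice (SD, n = 7 each), with no overlap between the groups. It was 1 of 2 genes called by genotype (edgeR's quasi-likelihood test, adjusted p = 0.00774, log2 fold change -0.57, SE 0.075). Markers of neurons, astrocytes, oligodendrocytes, microglia, vessels, striatum and choroid plexus or meninges were all detected, none with a median of 3 counts or fewer. Wild-type replicates 6 and 7, both of prefix 141, lay farthest out on the first principal component, and values without them are given where they matter. In bulk tissue, fewer cells of a type and less RNA per cell cannot be told apart.

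Most PPM phosphatases work as single chains and take their specificity from the cell compartment and from flanking domains. PPM1A, PPM1B and PPM1L dampen stress kinase cascades, PPM1E and PPM1F act on PAK and calmodulin-dependent kinases, and PPM1D restrains the p53 and DNA damage response. PPM1G is nuclear and acts on splicing factors, PPM1K activates branched-chain amino acid breakdown in mitochondria, and PPM1H, a close relative of PPM1M, removes the phosphate that LRRK2 places on Rab proteins. Dnmt3a encodes a DNA methyltransferase that methylates cytosine, mainly within CpG dinucleotides, and in neurons also outside them.

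The 250 bases before the start of Ppm1m, of Ppm1e and of Ppm1f are shown because they hold very different numbers of CpG, the pair of letters that Dnmt3a methylates best. CpG is in capitals, and the sequences are those of RefSeq on GRCm38.p6, written 5′ to 3′ on the gene's strand. The Ppm1m window is chr9:106199234-106199483, minus strand. That of Ppm1e is chr11:87358995-87359244, minus strand, and that of Ppm1f is chr16:16896219-16896468, plus strand.
Ppm1m: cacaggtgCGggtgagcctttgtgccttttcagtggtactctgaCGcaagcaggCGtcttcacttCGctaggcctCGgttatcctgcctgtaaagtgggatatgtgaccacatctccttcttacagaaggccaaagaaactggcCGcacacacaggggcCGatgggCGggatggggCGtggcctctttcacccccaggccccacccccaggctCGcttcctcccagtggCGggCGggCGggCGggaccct
Ppm1e: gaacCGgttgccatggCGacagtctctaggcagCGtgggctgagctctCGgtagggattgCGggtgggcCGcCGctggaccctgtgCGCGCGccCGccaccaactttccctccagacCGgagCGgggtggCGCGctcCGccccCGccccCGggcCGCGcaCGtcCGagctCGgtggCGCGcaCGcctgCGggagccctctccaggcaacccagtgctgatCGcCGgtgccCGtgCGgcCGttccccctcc
Ppm1f: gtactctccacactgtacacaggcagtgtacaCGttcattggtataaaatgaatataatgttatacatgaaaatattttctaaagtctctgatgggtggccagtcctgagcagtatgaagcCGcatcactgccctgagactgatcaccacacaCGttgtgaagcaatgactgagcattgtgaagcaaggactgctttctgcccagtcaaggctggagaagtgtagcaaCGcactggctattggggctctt
The Ppm1m window held 14 CpG, and 29.4% of the 32851 windows of this length before mouse gene starts held at least as many. A further Ppm1m start had 31 CpG in its window, a number reached by 5.2% of windows. Ppm1e had 32, reached by 4.6% of windows, and Ppm1f had 4, reached by 62.2%. The search was for the letters CG, which read the same on both strands. The median over all windows was 6 CpG, and 92.1% held at least 1. Windows of 9 of the 10 genes were in the RefSeq table. Their methylation was not measured in these libraries.

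Transcript levels within the family spanned about an order of magnitude once divided by exon length (CPM per kb of exon, with exon lengths from GENCODE M21, an annotation of another build than the counts). Ppm1e was highest at 52.9 ± 5.12 CPM per kb over the 14 animals, followed by Ppm1l at 38.8 ± 6.33 and Ppm1k at 29.3 ± 1.67 CPM per kb (SD, n = 14 each). The ranges of Ppm1e and Ppm1l overlapped, as did those of Ppm1l and Ppm1k, yet in all 14 animals the order held. Ppm1h, Ppm1a and Ppm1f shared a level of 18.5 CPM per kb with overlapping ranges, and their order could not be told. The level of Ppm1k did not overlap with that of Ppm1h. Ppm1b (10.9 ± 1.04) and Ppm1g (9.98 ± 1.08 CPM per kb) overlapped, and Ppm1b was higher in 10 of 14 animals. Lowest were Ppm1d at 6.11 ± 0.767 and Ppm1m at 5.77 ± 0.961 CPM per kb, with overlapping ranges and Ppm1d higher in 9 of 14 animals. Ppm1m, the gene with the widest genotype difference of the 10, was thus the least abundant by mean level.

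**Figure D1:**
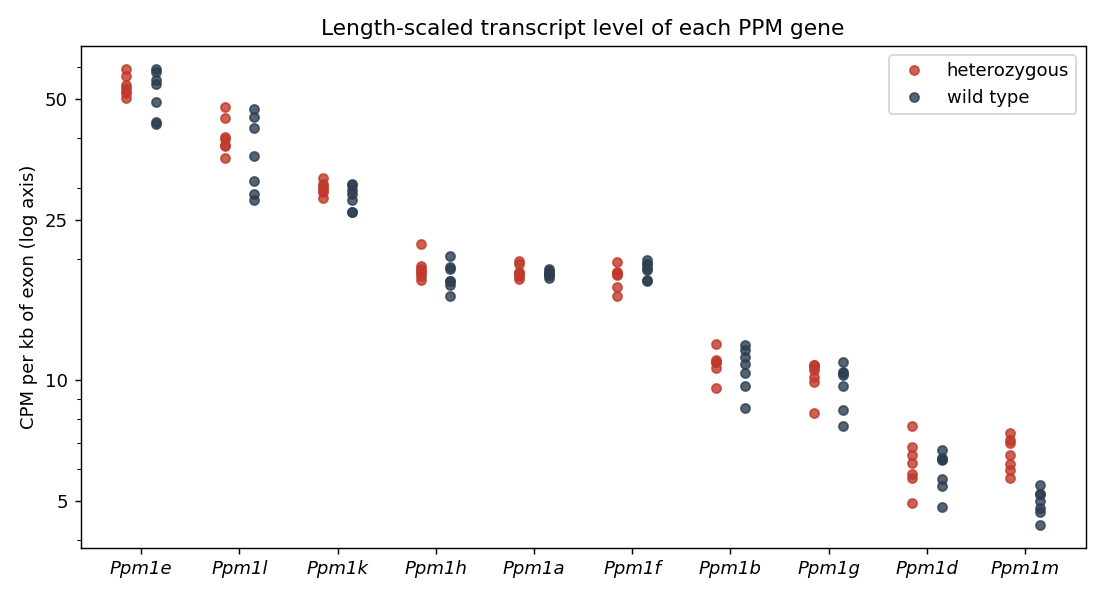
Length-scaled level of each PPM gene (CPM per kb of exon, log axis), ordered by mean, with 1 point per animal and heterozygotes left of wild type. Ppm1e averaged 52.9 CPM per kb and Ppm1m 5.77 CPM per kb over 14 animals, and Ppm1m is the gene whose genotypes do not overlap.

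Ppm1m encodes a phosphatase of the PPM1H branch. In set A it had 15.5, 16.8, 19.3 and 20.0 CPM in heterozygotes, against 13.0, 13.6, 14.1 and 14.1 CPM in wild-type mice. In set B it had 16.2, 17.7 and 19.0 CPM in heterozygotes, against 11.9, 12.8 and 14.8 CPM in wild-type mice. Every heterozygote lay above every wild-type mouse across both sets. Ppm1m averaged 17.8 ± 1.69 CPM in heterozygotes and 13.5 ± 1.00 CPM in wild-type mice (SD, n = 7 each). The fitted log2 fold change was 0.40 (SE 0.078), a level 1.32 times that of wild type (95% interval 1.19 to 1.47). The interval makes no allowance for the choice of Ppm1m by this contrast, which can make the estimate too large. Of all tested genes, 0.0796% had every heterozygote above every wild-type mouse, a share given as background only, since the genotype contrast chose Ppm1m. The opposite separation held for 0 members and 0.0434% of tested genes.

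Within each title prefix the mean of Ppm1m was higher in heterozygotes, by a log2 difference of 0.44 in prefix 046, 0.14 in 047, 0.56 in 048, 0.36 in 139, 0.47 in 119 and 0.40 in 141. Ppm1m was the 1 member positive in all 6 prefixes, as were 2.38% of tested genes. Negative in all 6 were 0 members and 2.05% of tested genes. Since every heterozygote lay above every wild-type mouse, a positive sign in each prefix, set and sex was fixed beforehand. It adds nothing to that separation, and the values here describe a gene, Ppm1m, that was chosen by this contrast. The fitted log2 fold change was 0.39 (SE 0.101) for set A animals, with 0.43 (SE 0.117) for those of set B. By sex it was 0.33 (SE 0.104) in females and 0.49 (SE 0.118) in males. Leaving out any 1 animal kept it between 0.37 and 0.43, and without wild-type replicates 6 and 7 together it was 0.41.

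Read depth for Ppm1m was modest, with 137 to 273 counts in heterozygotes and 116 to 192 counts in wild-type mice. In GENCODE M21 no other gene overlaps Ppm1m. Its nearest coding neighbours in the table, Wdr82 and Twf2, both lie on the opposite strand. Wdr82, a WD repeat gene of histone methyltransferase complexes, had 173 ± 7.49 CPM in heterozygotes and 169 ± 17.3 CPM in wild-type mice (SD, n = 7 each). Twf2, an actin-binding twinfilin gene, had 34.2 ± 3.21 CPM in heterozygotes and 31.6 ± 5.04 CPM in wild-type mice (SD, n = 7 each). Neither neighbour passed by edgeR (adjusted p = 0.978 for both), although Wdr82 was called in set B alone, as were 16.6% of tested genes, and their genotypes overlapped over all animals.

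Ppm1h, the Rab phosphatase gene most closely related to Ppm1m among the 10, ranged from 181 to 223 CPM with a median of 191 CPM in heterozygotes, against 166 to 208 CPM with a median of 180 CPM in wild-type mice. The groups overlapped, although all 7 heterozygotes lay above the wild-type median. Its log2 fold change was 0.065 (SE 0.061). Ppm1j, the third gene of this branch, had only 1 to 8 counts per animal and was not tested.

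**Figure D2:**
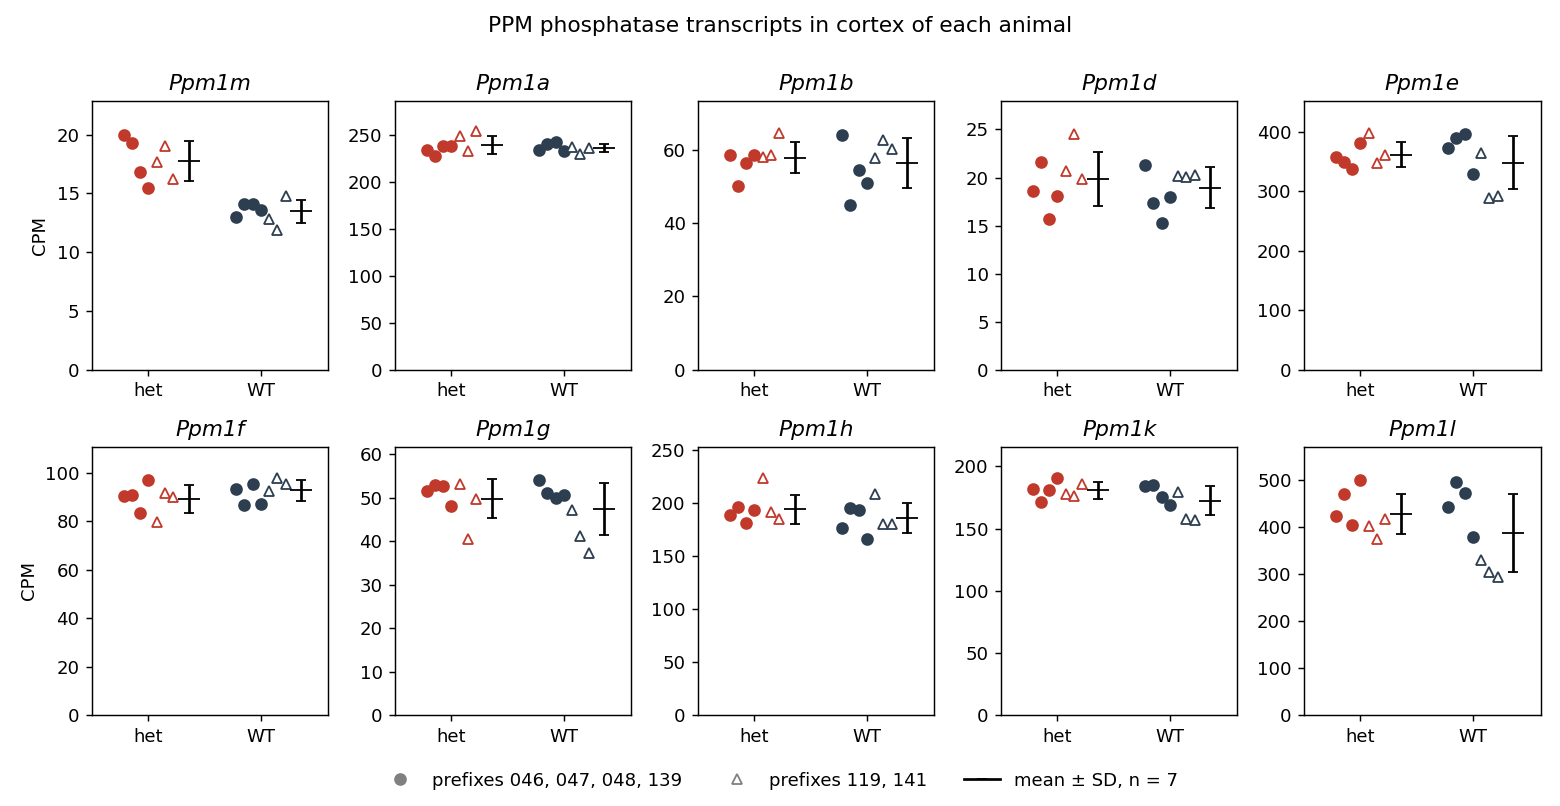
CPM of the 10 PPM genes in each animal, heterozygotes (het) left of wild type (WT), with filled circles for prefixes 046, 047, 048 and 139, open triangles for 119 and 141, and mean ± SD bars (n = 7 each). Ppm1m, chosen by its genotype contrast, is the only gene of the 10 without overlap (15.5 to 20.0 CPM in heterozygotes, 11.9 to 14.8 CPM in wild-type mice). Of all tested genes, 0.0796% had every heterozygote above every wild-type mouse and 0.0434% had every heterozygote below.

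Genes of stress kinase phosphatases came next. Ppm1l, whose product acts on TAK1 and ASK1 signalling, had 404, 423, 469 and 499 CPM in heterozygotes of set A, against 378, 442, 472 and 495 CPM in wild-type mice of set A. In set B it had 375, 401 and 417 CPM in heterozygotes, against 294, 304 and 329 CPM in wild-type mice. The genotypes overlapped throughout in set A and did not overlap in set B, where 10.8% of tested genes had all 3 heterozygotes above all 3 wild-type mice. Its log2 fold change was 0.14 (SE 0.115) over all animals, 0.0047 (SE 0.0788) in set A and 0.36 (SE 0.0915) in set B. Without wild-type replicates 6 and 7 it was 0.0025. Ppm1a, whose product dephosphorylates p38 and SMAD proteins, was the steadiest member, at 239 ± 9.04 CPM in heterozygotes and 236 ± 4.03 CPM in wild-type mice (SD, n = 7 each). Ppm1b, which acts on TAK1 and IKKβ, had 57.8 ± 4.16 CPM in heterozygotes and 56.3 ± 6.82 CPM in wild-type mice (SD, n = 7 each). Log2 fold changes were 0.018 (SE 0.049) for Ppm1a and 0.041 (SE 0.0684) for Ppm1b, both smaller than their errors. By set, Ppm1a had -0.017 (A) or 0.064 (B), whereas Ppm1b had 0.069 (A) or 0.0042 (B). Leaving out 1 animal gave 0.0023 (without heterozygous replicate 7) to 0.030 for Ppm1a and 0.0011 (without wild-type replicate 2) to 0.070 for Ppm1b.

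The PAK and CaM kinase phosphatase genes had fold changes of opposite sign. Ppm1e, a gene known for its expression in brain, had 337, 350, 357 and 381 CPM in heterozygotes of set A, against 329, 373, 390 and 397 CPM in wild-type mice of set A. In set B it had 347, 362 and 398 CPM in heterozygotes, against 289, 293 and 364 CPM in wild-type mice. The lowest values over all animals were those of wild-type replicates 6 and 7. The log2 fold change of Ppm1e was -0.065 (SE 0.0746) in set A and 0.23 (SE 0.0862) in set B, for 0.057 (SE 0.077) over all animals and -0.037 without wild-type replicates 6 and 7. Ppm1f was the 1 member with a negative value, at 89.1 ± 5.68 CPM in heterozygotes and 92.7 ± 4.30 CPM in wild-type mice (SD, n = 7 each). The fold change on the log2 scale was -0.057 (SE 0.0534). Set A gave -0.0013 and set B -0.13. In set B all 3 heterozygotes (79.9 to 91.6 CPM) lay below all 3 wild-type mice (92.6 to 98.0 CPM), as they did for 11.3% of tested genes. Part of Ppm1f (89 exonic bases) and of Ppm1h (225 exonic bases) is shared with an annotated gene on the opposite strand, and since no source used here states how strand was counted, reads of those stretches could be mixed.

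Nuclear and mitochondrial members had log2 fold changes under 0.1 over all animals. Ppm1g, the splicing-associated phosphatase, had 49.7 ± 4.51 CPM in heterozygotes and 47.3 ± 6.02 CPM in wild-type mice (SD, n = 7 each; log2 fold change 0.068, SE 0.0803). Its value was -0.0095 in set A, 0.19 in set B and -0.018 without wild-type replicates 6 and 7. Ppm1d, which encodes the p53-induced phosphatase WIP1, had 19.9 ± 2.80 CPM in heterozygotes and 18.9 ± 2.13 CPM in wild-type mice (SD, n = 7 each; log2 fold change 0.073, SE 0.0987). By prefix its differences ran from -0.43 in 139 to 0.32 in 046, the widest spread among the 10. Ppm1k, the phosphatase that activates the branched-chain ketoacid dehydrogenase, had 181 ± 6.77 CPM in heterozygotes and 172 ± 11.5 CPM in wild-type mice (SD, n = 7 each; log2 fold change 0.068, SE 0.0563). Without wild-type replicates 6 and 7 the log2 fold change was 0.012 for Ppm1k and 0.12 for Ppm1d. In the same fit it was 0.067 for Ppm1b, 0.061 for Ppm1h, 0.0085 for Ppm1a and -0.044 for Ppm1f.

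**Figure D3:**
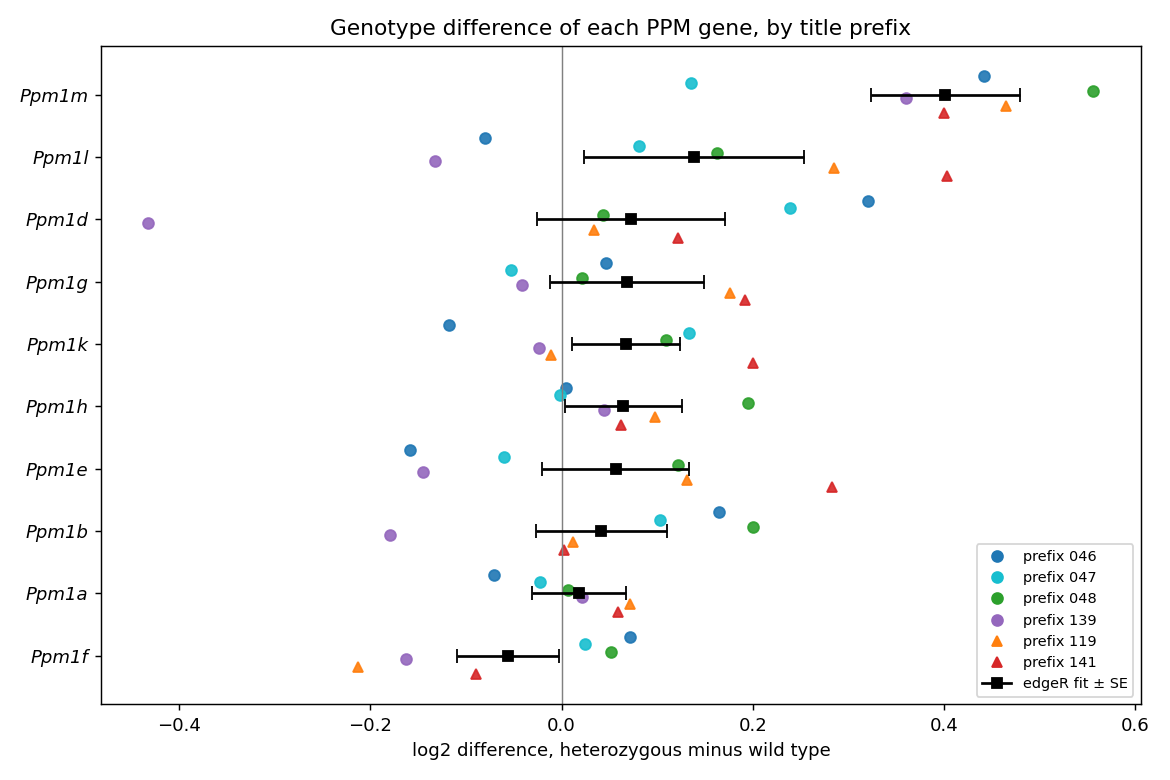
Log2 difference between genotypes (heterozygous minus wild type) of each PPM gene, within each title prefix (circles for 046, 047, 048 and 139, triangles for 119 and 141) and in the edgeR fit of all animals (square with SE). Ppm1m lies right of 0 in all 6 prefixes (0.14 to 0.56), whereas Ppm1l and Ppm1e lie farthest right in prefix 141.

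Among the 9 genes other than Ppm1m, 8 lay above 0, and their median was 0.065 on the log2 scale, against 50.9% positive and a median of 0.0024 over all tested genes. In set A 5 of the 9 were positive (median 0.0047), and in set B 8 were (median 0.10). With sex as the only other term, edgeR called 0 of the 10 by genotype, against 0.0145% of tested genes, and 1 of the 10 was under an unadjusted p of 0.05, as were 4.0% of tested genes. Calls by DESeq2 were 1 of 10, against 0.0796% of tested genes. With the title prefix as a block, 1 of 10 was called (0.405% of tested genes), and likewise with a term for the 2 sets (0.109%). The called gene was Ppm1m each time. The edgeR fit with sex, which called 0 of 10 with all animals, also called 0 without wild-type replicates 6 and 7 (0.00717% of genes). DESeq2 and the fits with a block or a set term were not run without them. The 6 animals of set B alone gave 3 called members, Ppm1e, Ppm1l and Ppm1m, beside 16.6% of tested genes, and the 8 animals of set A gave 0 members and 0% of genes by edgeR, with 1 member and 4.4% of genes under an unadjusted p of 0.05. Because the contrast was used in choosing the genes, no weight is placed on these counts.

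Of 7 lists of cell type markers, 3 did not overlap between genotypes in set B and 4 did. Among single tested genes in set B, 10.8% had all heterozygotes above all wild-type mice and 11.3% had them all below. Summed over 8 genes, astrocyte markers overlapped, at 12400 to 14400 CPM in heterozygotes and 13200 to 17800 CPM in wild-type mice of set B. Neuron markers (8 genes) also overlapped, at 7100 to 7910 CPM in heterozygotes and 5490 to 7380 CPM in wild-type mice there. Microglia markers had 276 to 301 CPM in heterozygotes and 304 to 353 CPM in wild-type mice of set B, without overlap. The same held for markers of endothelial cells and pericytes (210 to 218 CPM in heterozygotes, 224 to 250 CPM in wild-type mice) and of choroid plexus and meninges (57.8 to 60.5 CPM in heterozygotes, 66.8 to 83.9 CPM in wild-type mice). Oligodendrocyte markers (4440 to 6050 CPM in heterozygotes, 4710 to 6150 CPM in wild-type mice) and striatal markers (309 to 404 CPM in heterozygotes, 269 to 477 CPM in wild-type mice) overlapped too. Over both sets, 8 of 8 neuron and 6 of 8 oligodendrocyte markers had a positive log2 fold change, against 0 of 8 for astrocytes, 0 of 8 for microglia, 0 of 8 for endothelial cells and pericytes, 1 of 7 for striatum and 1 of 7 tested for choroid plexus and meninges. Of all tested genes, 50.9% had a positive log2 fold change. In set A the summed levels of all 7 lists overlapped between genotypes. As a description, the summed levels and Ppm1m had an r between -0.41 (endothelial cells and pericytes) and 0.11 (microglia) over the 8 animals of set A. Over the 6 animals of set B, r lay between -0.84 (choroid plexus and meninges) and 0.60 (neurons), with -0.57 for microglia. The part of the cell types in the values of Ppm1m, Ppm1l and Ppm1e was not tested.

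Sex was tested next, because it played no part in choosing the genes. Ppm1b had the smallest p of the 10, with 59.9 CPM in females and 53.4 CPM in males on average, a log2 difference of 0.17 (female minus male, SE 0.0693). It did not pass (adjusted p = 0.697 by edgeR, and 0.398 with a term for the 2 sets). The other log2 differences between females and males lay between -0.13 for Ppm1g and 0.081 for Ppm1f. None of the 10 was called, by edgeR or by DESeq2, and 1 was under an unadjusted p of 0.05 with each, as were 6.98% of tested genes by edgeR and 6.96% by DESeq2. Of all tested genes edgeR called 0.00724% and DESeq2 0.0796%. Ppm1m averaged 15.2 CPM in females and 16.2 CPM in males (log2 difference -0.087, SE 0.0785). Each prefix holds 1 sex, so within set B, where females are prefix 141 and males prefix 119, sex and prefix cannot be told apart. There 3 members were called lower in females, Ppm1e (-0.24), Ppm1g (-0.25) and Ppm1h (-0.23), beside 13.6% of tested genes. In set A their differences were 0.060, -0.0064 and -0.0075, and 0 members were called (0.065% of tested genes).

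The genotype effect was compared between females and males by an interaction term. For Ppm1m the female minus male difference of log2 fold changes was -0.17 (SE 0.158), and for the other 9 it lay between -0.14 (Ppm1b) and 0.13 (Ppm1k). By edgeR and by DESeq2, 0 of the 10 and 0% of tested genes were called. Under an unadjusted p of 0.05 were 0 of the 10, beside 1.04% of tested genes by edgeR and 0.84% by DESeq2. With SEs of 0.102 to 0.24, differences of the size seen for Ppm1m between the sexes were not detectable with these animals.

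Title prefixes of the same sex were then compared, with genotype as a term. This comparison takes in the split between the sets, which had already been seen in these data. Ppm1l differed among the prefixes (adjusted p = 0.000923 by edgeR), as did 32.2% of tested genes. In females Ppm1l had 499 and 472 CPM in prefix 047, 404 and 442 CPM in prefix 139, and 375, 417, 304 and 294 CPM in prefix 141, heterozygotes before wild type. In males it had 469 and 495 CPM in prefix 046, 423 and 378 CPM in prefix 048, and 401 and 329 CPM in prefix 119, in the same order. Its prefix means were lowest in 119 and 141 (365 and 348 CPM), and the sets overlapped, with a mean of 353 ± 51.6 CPM in set B (SD, n = 6) and 448 ± 43.8 CPM in set A (SD, n = 8). The adjusted p of Ppm1l stayed between 5.3e-05 and 0.00819 when any 1 animal was left out (edgeR). Within set A alone Ppm1l did not pass (adjusted p = 0.198 by edgeR), and 0.238% of genes did. Without wild-type replicates 6 and 7 it passed (adjusted p = 0.00201 by edgeR), as did 23.3% of genes.

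Ppm1g had a mean of 42.1 CPM in prefix 141 and of 49.0 to 53.4 CPM in the other prefixes. Within prefix 141 heterozygous replicate 7 had 49.6 CPM, and the other animals had 37.3 to 41.1 CPM. Ppm1g was the other member called among prefixes (adjusted p = 0.0394 by edgeR). This call was lost by leaving out any of 9 animals (wild-type replicates 1, 3, 4, 5, 6 or 7, or heterozygous replicates 3, 5 or 6), with an adjusted p up to 0.202. DESeq2 called Ppm1h in its place beside Ppm1l, with 29.4% of the genes it tested. Without the low-count filter Ppm1e joined Ppm1g and Ppm1l, with 26.2% of genes called. The prefix means of Ppm1h ran from 177 CPM in 048 to 216 CPM in 119. Ppm1m did not differ detectably (adjusted p = 0.86 by edgeR), and its prefix means lay between 14.8 and 16.8 CPM. A count of 2 of 10 members is no higher than the share of all genes called.

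**Figure D4:**
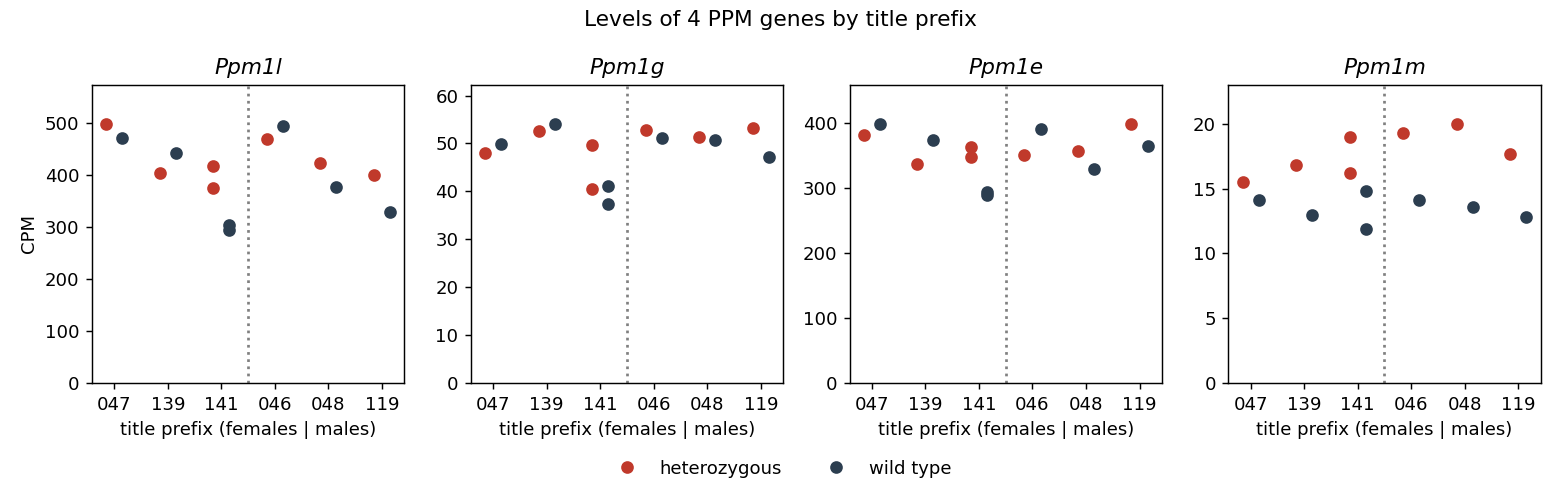
CPM of Ppm1l, Ppm1g, Ppm1e and Ppm1m by title prefix (females left and males right of the dotted line), with heterozygotes left of wild type in each prefix and 1 point per animal. Ppm1l is at 294 and 304 CPM in wild-type mice of prefix 141, while heterozygous points of Ppm1m lie above the wild-type points in each prefix.

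Members were also compared with each other across animals, as a description, within each set so that the distance between the sets does not enter. Of 45 pairs, 15 correlated positively in both sets and 5 negatively in both. The median Pearson's r was 0.11 over the 8 animals of set A and 0.25 over the 6 of set B. Ppm1e and Ppm1l went together most closely (r = 0.85 in set A, 0.83 in set B), and Ppm1e also had r above 0.5 in both sets with Ppm1a, Ppm1h and Ppm1k. Ppm1f and Ppm1e had r = 0.61 in set A and -0.86 in set B. Prefix, sex, library depth and genotype vary among the animals of each set and enter each r.

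**Figure D5:**
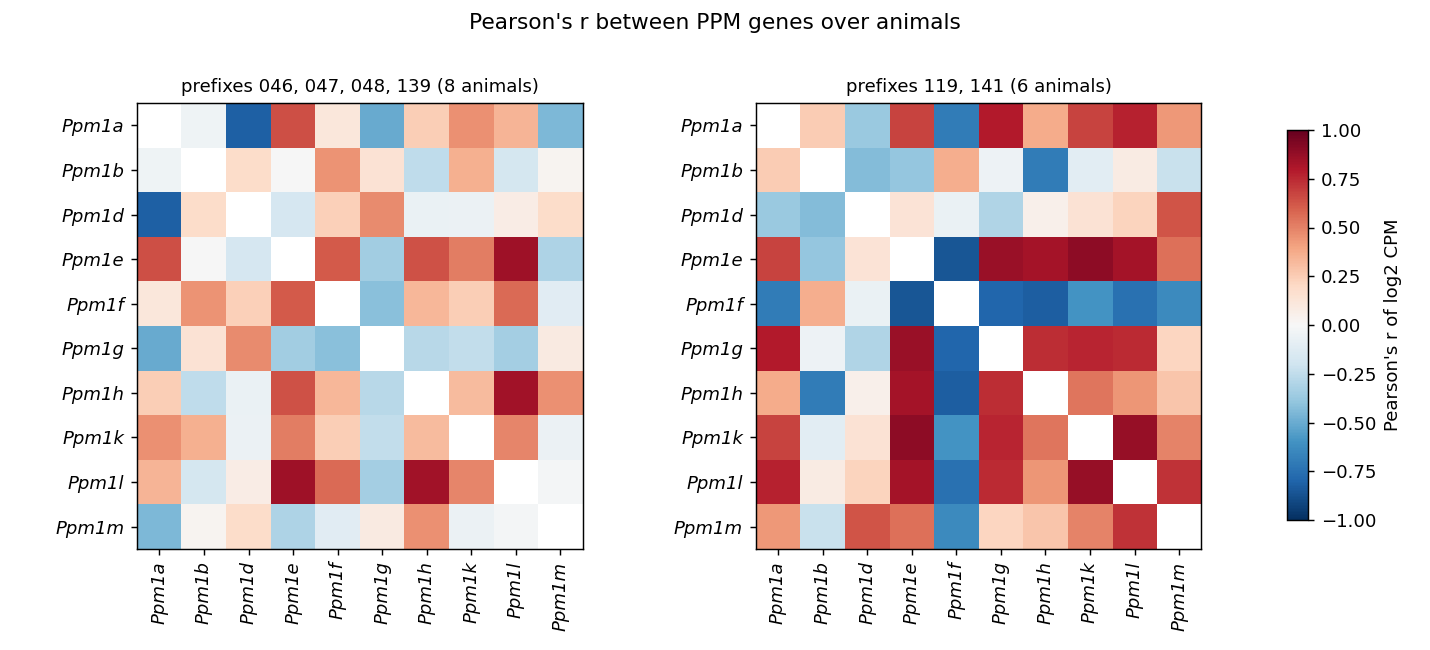
Pearson's r of log2 CPM between each pair of PPM genes over the 8 animals of set A (left) and the 6 of set B (right), red for positive and blue for negative. Ppm1e and Ppm1l are red in both (0.85 and 0.83), while Ppm1f with Ppm1e is red in set A (0.61) and blue in set B (-0.86).

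Ppm1m followed none of the other members closely. With Ppm1h it had r = 0.46 over set A but 0.28 over set B, the highest smaller value of the 9, and Ppm1h ranked 887th of the 11098 genes compared in likeness to Ppm1m. The 5 genes most like Ppm1m by the smaller of the correlations in the 2 sets were Eif1ad (0.92 in set A, 0.86 in set B), Erf (0.84 and 0.84), an ETS-family repressor gene, Ints7 (0.89 and 0.82), which encodes an Integrator subunit, Fbxo27 (0.82 and 0.90), an F-box gene, and Otud1 (0.80 and 0.82), a deubiquitinase gene. Each value rests on the 8 animals of set A or the 6 of set B, and the genotype difference of Ppm1m is part of it. With genotype and set means removed, r over the 14 animals was 0.34 to 0.64 for these 5 genes. They were picked by their r with Ppm1m over the same animals, so no weight is placed on these values.

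The rest of the family and genes of the pathways in which its members act were examined as 7 lists. They held 99 genes found in the table, of which 95 were tested. The lists were chosen with earlier results of these data known, so no weight is placed on their counts. By genotype, 0 of the 95 passed over all genes in the edgeR fit with sex, with the prefix block or by DESeq2, and 2 were under an unadjusted p of 0.05 with sex as a term (2.11%) and 10 with the block (10.5%), both below the shares of all tested genes, 4.0% and 12.9%. Pdp1 and Pdp2, under that p with sex as a term, encode catalytic subunits of pyruvate dehydrogenase phosphatase, which switches on entry of pyruvate into the citric acid cycle. Pdp1 had 279 ± 40.0 CPM in heterozygotes and 246 ± 20.0 CPM in wild-type mice (log2 fold change 0.17, SE 0.0813), and Pdp2 had 16.0 ± 1.86 CPM in heterozygotes and 18.3 ± 1.55 CPM in wild-type mice (-0.18, SE 0.0862), all SD with n = 7. The 7 tested family members outside the 10 had a median of 0.0035. Among them Phlpp2, which dephosphorylates AKT, had 0.054 and Ilkap -0.059. Ppm1n had at most 2 counts in any animal.

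Over all tested genes 50.9% were positive, with a median of 0.0024, and the pathway lists are described beside that. For stress kinases and SMADs, 15 of 19 tested genes were positive (median 0.059), with Prkaa2, an AMPK subunit gene, at 0.099, Mapk8 (JNK1) at 0.086, Map2k6 at -0.10 and Ikbkb at -0.054. Genes of p53 and the DNA damage checkpoint were positive in 10 of 13 (median 0.059), with Gadd45a at 0.26, the p53 target Bbc3 at 0.20, Ccng1 at -0.10 and Chek1 at -0.43, the last with a mean count of 13.7 and so uncertain. PAK and CaM kinase genes were positive in 10 of 16 (median 0.046), with Pak1 at 0.14, Camk1g at 0.21, the PAK-binding scaffold Git1 at -0.16 and Camk2a at -0.20. In this list Camk2a stood at 0.0053 over set A but -0.41 over set B, while Camk1g stood at 0.048 over set A but 0.50 over set B.

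Genes of the LRRK2 and Rab pathway, in which PPM1H acts, were positive in 6 of 13 (median -0.0021). Rab3a, a synaptic vesicle GTPase gene, was at 0.095 and Rilpl1, a phospho-Rab effector gene, at 0.062. Rilpl2 was at -0.083 and Rab12 at -0.042. Branched-chain amino acid breakdown, the pathway of PPM1K, was positive in 4 of 13 (median -0.022), with the transaminase genes Bcat1 at 0.16 and Bcat2 at -0.15, Acly at 0.12 and Acad8 at -0.084. The 7SK particle and spliceosome assembly genes, the setting of PPM1G, were positive in 8 of 14 (median 0.015), with Ddx20 at 0.11, Ccnt1 at 0.082, Gemin8 at -0.27 and Gemin7 at -0.075. None of the genes named in these lists passed by edgeR (adjusted p = 0.978 for each with sex as a term, and 0.16 or more with the block). List medians were 0.13 in set B and -0.014 in set A for stress kinases, 0.14 and -0.016 for p53 genes, 0.098 and 0.011 for PAK and CaM kinases, 0.052 and -0.035 for LRRK2 and Rabs, 0.072 and -0.028 for the 7SK list, and -0.10 and 0.026 for branched-chain amino acid breakdown, in the same order. Over all tested genes the median was -0.0004 in set B and 0.00083 in set A.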

How the data were processed

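RNA of dissected cortex from 14 mice was measured by RNA sequencing with a directional kit and single-end reads, per the labels' protocols. The authors deposited 1 table of whole-number counts of reads per gene symbol, without normalization, in which every animal's column was matched by its title. Trim Galore, Bowtie, STAR and bedtools and the mm9 build appear, with no role, in the submitters' processing notes. The counter, its use of strand and the annotation are not given in the sources used here. Per the file headers, 4 further columns hold the authors' DESeq comparison of exon counts by genotype: a log2 fold change, the statistic of that test (a score), its p-value and the adjusted p-value.

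The count model was edgeR 4.0.16 in R 4.3.3, with limma 3.58.1: filterByExpr by genotype, TMM factors, robust dispersion and quasi-likelihood F tests, with Benjamini-Hochberg adjustment over all tested genes at 0.05. Tested genes held 99.9% of counts. Standard errors come from the fold change and F. The genotype fit had sex as a term, and the sex fit had genotype. Prefixes were tested as 4 differences within sex. CPM uses TMM-scaled libraries, and log2 CPM a prior count of 2. DESeq2 1.42.0 was an alternative. Scripts were checked on simulated counts. Nothing beyond the littermate label says how animals were raised or processed. Differences were judged against the spread between these animals, and the genotype fit with sex had no term for the title prefix.

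The 10 genes and all lists were chosen with earlier results of these data known. Genes named are the 10, Dnmt3a, neighbours of Ppm1m, the 5 genes most like it among those with a mean of at least 5 CPM, and, per list, genes past the threshold or else the 2 smallest p-values in each direction. Of the list genes, Mapk8ip4 was not matched, and Pp2d1, Rab29 and Gemin2 were found under older symbols. For pairing, deviations from genotype means correlated at 0.2 to 0.517 in the 9 same-prefix pairs across genotypes, all above 0.1, so the prefix was used as a block beside the fit with sex. With sex and set also removed, these correlations were -0.328 to -0.00545, so likeness within a prefix beyond sex and set was not shown. Pairs of different prefixes were not compared. The pairing comes from the sample titles.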

Additional observations from a re-analysis of the deposited data

Results flagged for a closer look

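Among 22 groups of 7 animals examined (11 genes in 2 genotypes), 2 held an animal far from the rest, where chance alone flags about 1 group in 20. Ppm1g had 40.4 CPM in heterozygous replicate 6 (prefix 141), and the other heterozygotes lay between 48.1 and 53.2 CPM. Ppm1h had 223 CPM in heterozygous replicate 5 (prefix 119), and the other heterozygotes lay between 181 and 196 CPM. In both cases the gap to the nearest animal took more than 0.568 of the group's range. Heterozygous replicate 7, also of prefix 141, had 49.6 CPM of Ppm1g, within the range of the other heterozygotes. Wild-type mice of the same prefixes were also at an edge of their group. They had 37.3 and 41.1 CPM of Ppm1g in prefix 141 and 208 CPM of Ppm1h in prefix 119. What sets these animals apart was not tested.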

How the results depend on the processing

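The count of PPM genes called by genotype was 0 with sex as a term, also with DESeq2 size factors, without the low-count filter and without any 1 animal (0 to 0). It was 1 by DESeq2, 1 with the replicate block of title prefixes, 1 with a set term and 3 in set B alone. Leaving out wild-type replicates 6 and 7 together, an alternative added after the data were seen, gave 0 in the fit with sex. It was not run for DESeq2, the block or the set term. The log2 fold change of Ppm1m lay between 0.374 and 0.433 without any 1 animal and between 0.383 and 0.426 under the other settings. By sex the count was 0 under all settings (0 to 0 without 1 animal) except set B alone, with 3. The interaction with sex gave 0 under all settings run (0 to 0), the replicate block included. Among prefixes the count was 2, with 1 to 3 without 1 animal, 0 in set A alone and 1 without wild-type replicates 6 and 7. The replicate block was run for genotype and for the interaction, and Ppm1m was the 1 call it changed among the 10. The causes of these changes were not tested. Ppm1m rests on 116 to 273 counts per animal, which limits its precision.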
